A study of Rattus norvegicus with 9 samples.

Results

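Cardiosphere-derived cells (CDCs) of the rat heart were cultured on a film of octyl hydroxypropyl cellulose ester (OPC), a cholesteric liquid crystal, or on polystyrene (PS), and their RNA was compared by RNA-Seq. The comparison took the 3 OPC libraries and the 3 PS libraries, 6 of the 9 libraries of the series, and 12513 of 19919 genes, namely those with a value of at least 1 in at least 3 of the 9 libraries. All cells were wild type. By the study's methods they came from the septum of the left ventricle of 4-week-old male Sprague Dawley rats, were expanded on fibronectin, and were seeded at 1 density on each substrate for 3 days. The other 3 libraries came from ultralow attachment (ULA) dishes. The PS group was not a flat monolayer: the study describes spherical aggregates there too, with supporting cells at their base, and spheroids without such cells in the OPC group. The supporting cells of the PS group are thus part of what was compared if they were harvested, which the sources used here do not say. The labels call the replicates biological but do not say whether they came from separate animals, so p-values measure only the spread between cultures as sampled, which may be technical.

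CDCs are stromal cells that grow out of minced heart tissue and round up into cardiospheres (CSps), and they are known for the growth factors and vesicles they release. A cell spread on a stiff surface pulls on it through integrins and actomyosin cables. That tension lets the cofactors MRTF and YAP enter the nucleus, where they drive genes of the contractile machinery, of the matrix and of growth. Cells in a spheroid pull mostly on each other and meet a thinner supply of oxygen and nutrients.

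The values are fragments scaled to gene length and library size (FPKM), as read from the values themselves. Each library summed to 444736.4 to 460731.7 FPKM. Steps between low values gave relative depths of 0.865 to 1.18 times the first PS library, but no absolute read number could be had. Counting intervals are therefore not given, and a 0 may only mean too few reads. Genes of mitochondrial DNA held 9.214 to 12.589% of a library. Within a group, Pearson's r across genes on log2(FPKM + 1) was 0.9884 to 0.9906 for PS and 0.9873 to 0.9888 for OPC, and between the groups it was 0.8972 to 0.9167. The third OPC library was nearer to the PS libraries (r 0.9145 to 0.9167) than the other two OPC libraries (0.8972 to 0.903). Each of 15 mesenchymal markers was present. Of 12 matched cardiomyocyte markers, 10 stayed below 1 FPKM in all 6 libraries, as did 6 of 7 endothelial markers. The leukocyte markers, of which 8 of 12 were matched, summed to 3.377 to 3.966 FPKM in the PS libraries and 22.63 to 26.81 in the OPC libraries. Nearly all of that sum was the lysosomal gene Cd68, while Ptprc, Csf1r, Adgre1 and Aif1 were below 0.31 FPKM in each of the 6 libraries. In bulk RNA, fewer cells of a type and less RNA per cell cannot be told apart.

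When the OPC and PS groups were compared, 1591 genes were differentially expressed genes (DEGs), set at |log2FC| of 1 or more with a limma adjusted p of 0.05 or less. The log2FC is the difference of mean log2(FPKM + 1), which understates the change of genes with low levels. Of the DEGs, 826 were higher in the OPC group (6.6% of the genes tested) and 765 were lower (6.11%). With no fold threshold, 5059 genes (40.4%) were higher and 2994 (23.9%) lower, so these 2 shares are the background for every count of a gene list given here. After upper-quartile rescaling, 4269 genes were higher and 3582 lower, so that 54.4% of the genes called were higher in place of 62.8%. The 3 OPC libraries lay wholly above the 3 PS libraries for 5501 genes (44%) and wholly below them for 3302 (26.4%). Across the genes tested, the median log2FC was 0.11, or 0.05 once libraries were rescaled to a common upper quartile. With 3 libraries in each group, an exact permutation test of a single gene cannot go below p = 0.1, so calls rest on limma, which shares the spread across genes. Counting by strand is not stated in the sources used here. Values of genes that overlap another gene may hold its reads, and among those named below these are Abca1, Actn4, Bcl2l1, Cnn2, Cox6a1, Cp, Cxcl10, Ednrb, Fgf2, Fgf7, Fhl1, Fn1, Ftl1, Gdf6, Idh2, Irf7, Lims2, Lox, Mt-atp6, Mt-co3, Mt1, Sfrp4, Slc11a2, Tagln, Tgfb2 and Timp3.

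Most DEGs differed by 2- to 4-fold on that scale. Among those that rose, 637 had a log2FC of 1 to 2, 125 of 2 to 3, 43 of 3 to 4 and 21 of at least 4. Among those that fell, the same steps held 602, 128, 27 and 8 genes. The 826 genes that rose held 4.25% of all FPKM in the PS group and 18.7% in the OPC group. The 765 that fell held 19.4% in the PS group and 5.84% in the OPC group. At the threshold, the 6 rising DEGs nearest to it had log2FCs of 1.0003 to 1.0034 and the 6 genes just outside had 0.9945 to 0.9995. For falling genes, these were -1.0033 to -1.0005 inside and -0.9986 to -0.9951 outside.

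**Figure D1:**
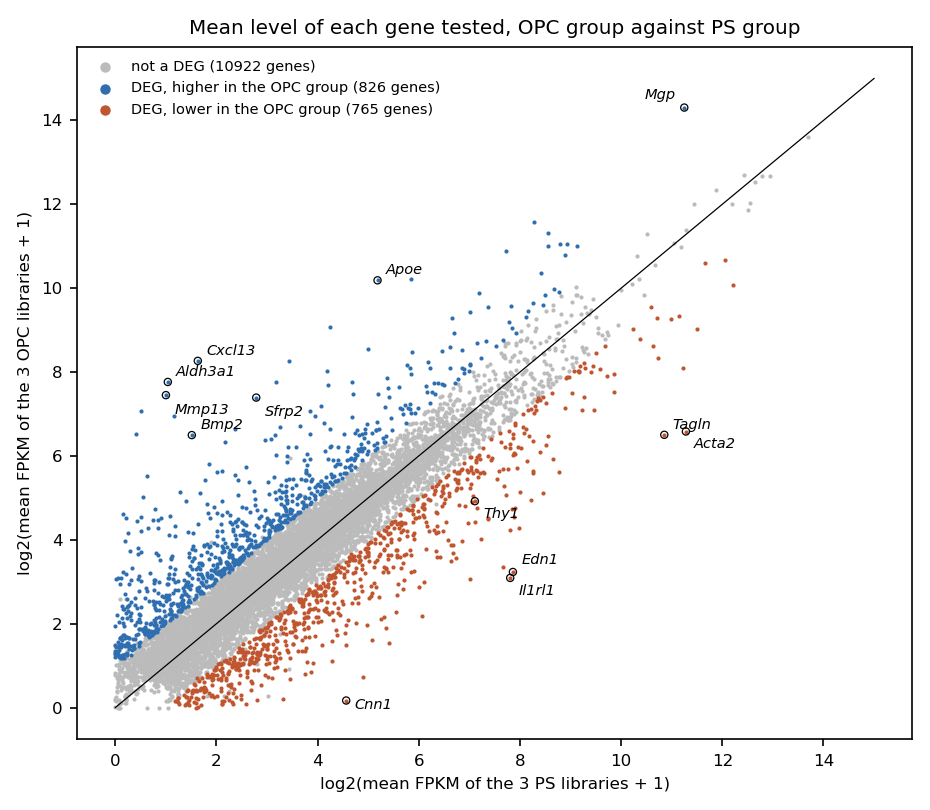
Mean level of each of the 12513 genes tested, as log2(mean FPKM + 1), in the 3 PS libraries (horizontal axis) and the 3 OPC libraries (vertical axis). Blue points are the 826 DEGs higher and orange points the 765 DEGs lower in the OPC group, grey points are other genes, and the line marks equal levels. Mgp lies alone at the upper end, and Acta2 and Tagln lie far below the line at high PS levels.

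A single gene, Mgp, was the most abundant transcript of the OPC group. Mgp encodes matrix Gla protein, a secreted inhibitor of calcification that also binds bone morphogenetic proteins. It had 2389, 2395 and 2511 FPKM in the PS libraries and 20555, 20901 and 19310.0 in the OPC libraries. It took 4.518% of all FPKM in the OPC group (limma log2FC 3.06 with SE 0.06, adjusted p = 3.48e-10), and each OPC library was over 7 times any PS library. In the PS group the 10 highest genes were 5 of mitochondrial DNA (Mt-co1, Mt-co3, Mt-co2, Mt-atp6 and Mt-cyb) and Col1a1, Fn1, Thbs1, Sparc and Actb. In the OPC group Col1a1, Thbs1 and Actb gave way to Mgp, the ferritin light chain gene Ftl1 and the proteoglycan gene Bgn. Ftl1 rose from 3756 FPKM to 5188 FPKM and Bgn from 2783 FPKM to 4086 FPKM, while Thbs1, which encodes the matricellular protein thrombospondin 1, fell from 4714 FPKM to 1084 FPKM. The actin gene Actb fell from 4227 FPKM to 1618 FPKM.

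The 12 named genes with the largest rises were chosen among DEGs with an average of 5 FPKM or more in the 6 libraries whose groups did not overlap. They encode 3 chemokines (Cxcl13, Cxcl6 and Cxcl3), 2 enzymes of foreign compound metabolism (Aldh3a1 and Cyp1a1), 2 matrix proteases (Mmp13 and Mmp3), 2 secreted regulators of development (Bmp2 and Sfrp2), the apolipoprotein Apoe, the calmodulin-binding peptide Pcp4 and the calcium buffer Pvalb. Cxcl13, a chemokine that attracts B cells, lies on chromosome 14 of rn6 from 15253125 to 15258207. It had 0.899, 0.765 and 4.64 FPKM in the PS libraries and 296, 351 and 274 in the OPC libraries (limma log2FC 6.85 with SE 0.37, adjusted p = 1.96e-07). All 3 OPC libraries were high, and among the PS libraries the third stood above the other two. Apoe, which carries lipid out of cells, had 36.97, 28.4 and 40.8 FPKM in the PS libraries and 1271, 1157 and 1066 in the OPC libraries (limma log2FC 5.01 with SE 0.12, adjusted p = 1.18e-09). It was already present in every PS library and was the most abundant of the 12 in the OPC group. Pcp4 had 0.105, 0.267 and 0.622 FPKM in the PS libraries and 101, 94.6 and 79.00 in the OPC libraries, and Pvalb had 0.508, 0 and 1.13 FPKM in the PS libraries and 49.6, 45.7 and 40.6 in the OPC libraries. Both were near the floor in the PS group and present in each OPC library.

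The 12 named genes with the largest falls are led by a cytokine receptor, a vasoconstrictor and 4 genes of the contractile machinery. Il1rl1 encodes ST2, the receptor of interleukin 33, and lies on chromosome 9 from 47134034 to 47182170. It had 224, 225 and 220.1 FPKM in the PS libraries and 6.68, 4.901 and 11.01 in the OPC libraries (limma log2FC -4.78 with SE 0.20, adjusted p = 4.36e-08). Edn1, which encodes the vasoconstrictor endothelin 1, had 250.2, 223 and 221 FPKM in the PS libraries and 6.903, 4.97 and 13.3 in the OPC libraries (limma log2FC -4.72 with SE 0.26, adjusted p = 2.61e-07). For both genes no PS library came near any OPC library, and the third OPC library was the highest of its group. The gap junction gene Gjb2 had 27.6, 29.6 and 29.7 FPKM in the PS libraries and 0.242, 0.4303 and 1.32 in the OPC libraries. Palmd, which encodes a membrane-associated protein, fell from 128 FPKM to 7.398 FPKM, and the Src-binding adaptor gene Afap1l2 fell from 41.4 FPKM to 1.93 FPKM. Pdlim3, a partner of alpha-actinin, fell from 66.4 FPKM to 3.53 FPKM. Fndc1 and the serine protease gene Prss23 fell from 252 FPKM to 18.5 FPKM and from 222 FPKM to 17.8 FPKM.

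**Figure D2:**
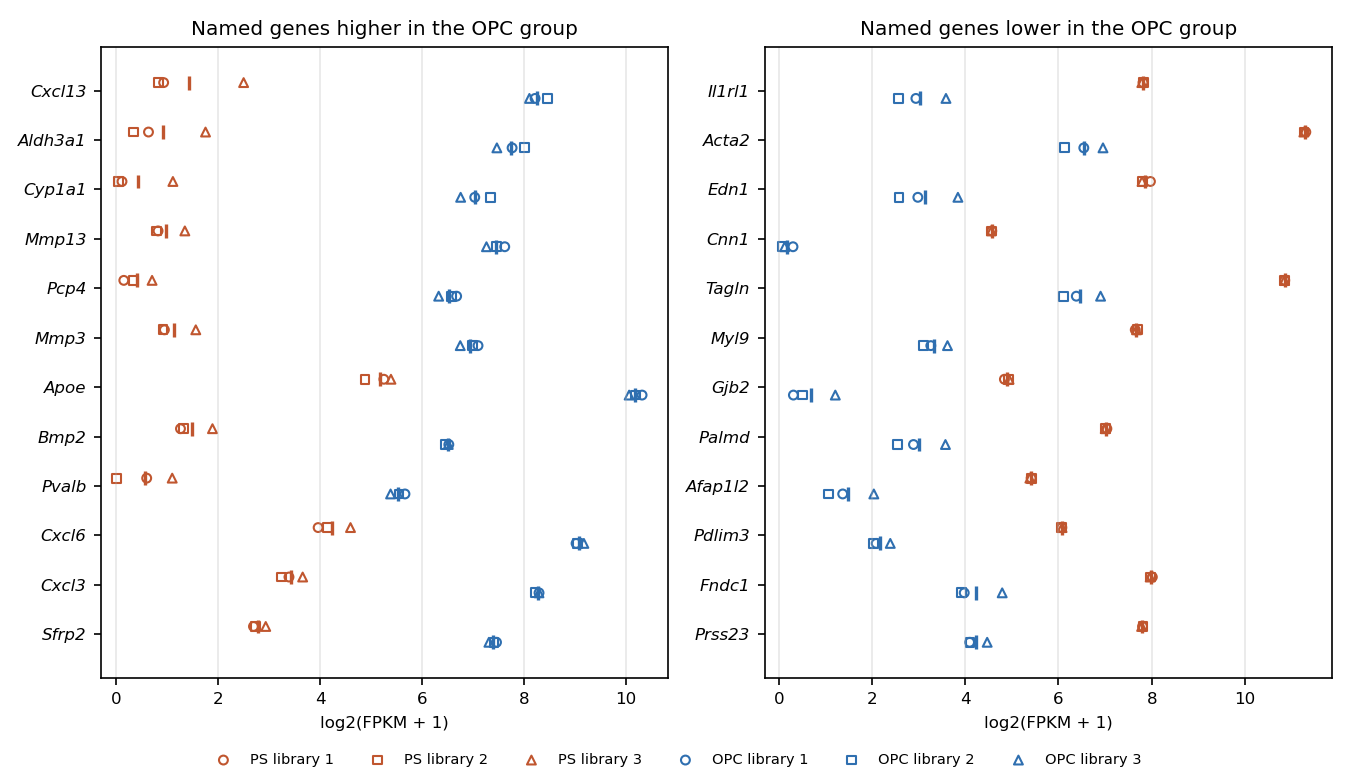
Level of the 12 named genes with the largest rises (left) and falls (right) in each library, as log2(FPKM + 1), with a symbol per library number and a vertical tick at the mean of the 3 libraries. The groups do not overlap for any of the 24 genes, which was a condition for naming them. The third PS library is the highest PS library for all 12 genes on the left.

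The contractile list fell almost as a whole. Of 28 members tested, 27 were lower in the OPC group, 0 were higher and Synpo2 did not pass, with a median log2FC of -1.75 against 0.11 over all genes. Acta2, the smooth muscle actin that marks myofibroblasts, lies on chromosome 1 from 252537615 to 252550394. It had 2532, 2467 and 2460.1 FPKM in the PS libraries and 92.3, 69.3 and 123 in the OPC libraries (limma log2FC -4.74 with SE 0.16, adjusted p = 9.71e-09). Cnn1, an actin-binding brake on myosin, had 22.7, 22.7 and 22.6 FPKM in the PS libraries and 0.234, 0.0495 and 0.0902 in the OPC libraries, and its log2FC of -4.40 was -6.75 with a pseudocount of 0.1. Myl9, the regulatory light chain of myosin, fell from 203 FPKM to 9.16 FPKM. Tagln, which bundles actin and overlaps Sidt2 on the same strand, fell from 1849.6 FPKM to 89.8 FPKM. Beside this list, the markers of smooth muscle cells and pericytes did not move as 1 group. Among those markers, Myh11, Lmod1, Mcam, Cspg4 and Notch3 fell. The channel subunit genes Abcc9 and Kcnj8 rose from 17.8 FPKM to 99.1 FPKM and from 5.02 FPKM to 25.9 FPKM, and Des and Rgs5 were below 0.2 FPKM in each of the 6 libraries. The part that a change in cell types had in these falls was not tested.

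Serum response factor (SRF), the partner of MRTF, binds the CArG box, and the promoters of contractile genes are shown because this list fell so widely. In RefSeq promoters of the GRCr8 build (250 bases before to 50 after each gene's start), 22 of the 28 genes were matched, while Tagln and Myl9 were among those that were not. Only the strict pattern CCWWWWWWGG was searched, where W is A or T. It was found on either strand in 5 of the 22 (22.7%), namely Cnn2, Srf, Fhl1, Fhl2 and Actg1. Boxes with a G or C in the core were not counted, and the Acta2 promoter holds ccctatatgg and ccttgtttgg of this kind. A promoter without a match here may thus still hold a CArG-like box. Among the promoters of all genes tested that could be matched, 108 of 8781 (1.23%) held the strict pattern, and 548 of all 33469 in the table (1.64%) did. Among DEGs, 12 of 527 that fell (2.28%) and 4 of 555 that rose (0.721%) held it. The list was chosen to hold actomyosin genes and SRF cofactors, Srf among them, so its larger share follows in part from that choice. The stretches of 4 of these genes follow, 5′ to 3′ along the gene, with the CArG box in capitals. They are the Srf promoter on chr9:21923950-21924069 (plus strand), Actg1 on chr10:106120987-106121086 (minus), Cnn2 on chr7:10370329-10370428 (minus) and Fhl2 on chr9:52954581-52954680 (minus).
Srf: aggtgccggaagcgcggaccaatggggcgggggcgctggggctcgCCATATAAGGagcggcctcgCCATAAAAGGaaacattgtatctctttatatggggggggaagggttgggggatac
Actg1: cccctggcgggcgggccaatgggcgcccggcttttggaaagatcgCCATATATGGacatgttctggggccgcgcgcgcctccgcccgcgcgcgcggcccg
Cnn2: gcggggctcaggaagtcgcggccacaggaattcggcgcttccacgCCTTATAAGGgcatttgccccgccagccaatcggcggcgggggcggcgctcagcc
Fhl2: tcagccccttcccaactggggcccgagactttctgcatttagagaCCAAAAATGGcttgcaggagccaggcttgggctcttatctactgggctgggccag
Srf, whose stretch holds 2 boxes, had 21.7 ± 1.28 FPKM across the PS libraries and 14.04 ± 0.617 across the OPC libraries (SD, n = 3). Actg1, a cytoplasmic actin with close paralogs that may share reads, fell from 1665 FPKM to 625 FPKM. Cnn2, a calponin outside smooth muscle, fell from 259 FPKM to 72.1 FPKM, and Fhl2, a LIM protein of adhesions and nuclei, fell from 94.7 FPKM to 14.9 FPKM. These genes are named for their promoter match and not for their change. A match is a description of letters in this window, and of the 5 matched promoters each belonged to a gene that fell, as did nearly all of the list.

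Genes of adhesion plaques and of YAP also leaned downwards. Of 34 integrin and plaque genes, 25 were lower and 7 higher (median log2FC -0.68). The actin crosslinker gene Flna had 617, 612 and 615 FPKM in the PS libraries and 164, 163 and 176 in the OPC libraries (limma log2FC -1.87 with SE 0.04, adjusted p = 4.47e-10), and the plaque gene Vcl fell from 129 FPKM to 36.9 FPKM. Lims2, an adaptor at integrin tails, fell from 12.8 FPKM to 1.13 FPKM, and the actinin gene Actn4 fell from 289.8 FPKM to 88.1 FPKM. Against this, the integrin genes Itgb8 and Itgb3, whose products pair with the alpha-v subunit, rose from 5.21 FPKM to 40.7 FPKM and from 3.26 FPKM to 19.7 FPKM. Of 22 genes known as targets of YAP and TEAD, 16 were lower and 6 higher (median -1.28). Ankrd1, a cardiac ankyrin repeat gene that YAP drives, had 44.9, 46.02 and 47.4 FPKM in the PS libraries and 3.504, 2.69 and 5.43 in the OPC libraries. Each PS library was above 7 times each OPC library. Ctgf, which encodes a matricellular growth regulator, fell from 2879 FPKM to 523 FPKM, and the tissue factor gene F3, which starts clotting, fell from 436 FPKM to 48.04 FPKM. Amotl2, which restrains YAP, fell from 164 FPKM to 21.4 FPKM.

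Caveolae are pits of the membrane that flatten when it is stretched. All 8 caveolar genes tested were lower in the OPC group (median log2FC -1.43, background 23.9%). Cav1, the main coat protein, had 307, 304 and 301 FPKM in the PS libraries and 47.3, 45.03 and 54.1 in the OPC libraries (limma log2FC -2.62 with SE 0.06, adjusted p = 8.75e-10). Its partners Cavin1, Cavin3 and Cav2 fell from 165 FPKM to 63.5 FPKM, from 120.0 FPKM to 27.03 FPKM and from 18.6 FPKM to 6.01 FPKM.

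**Figure D3:**
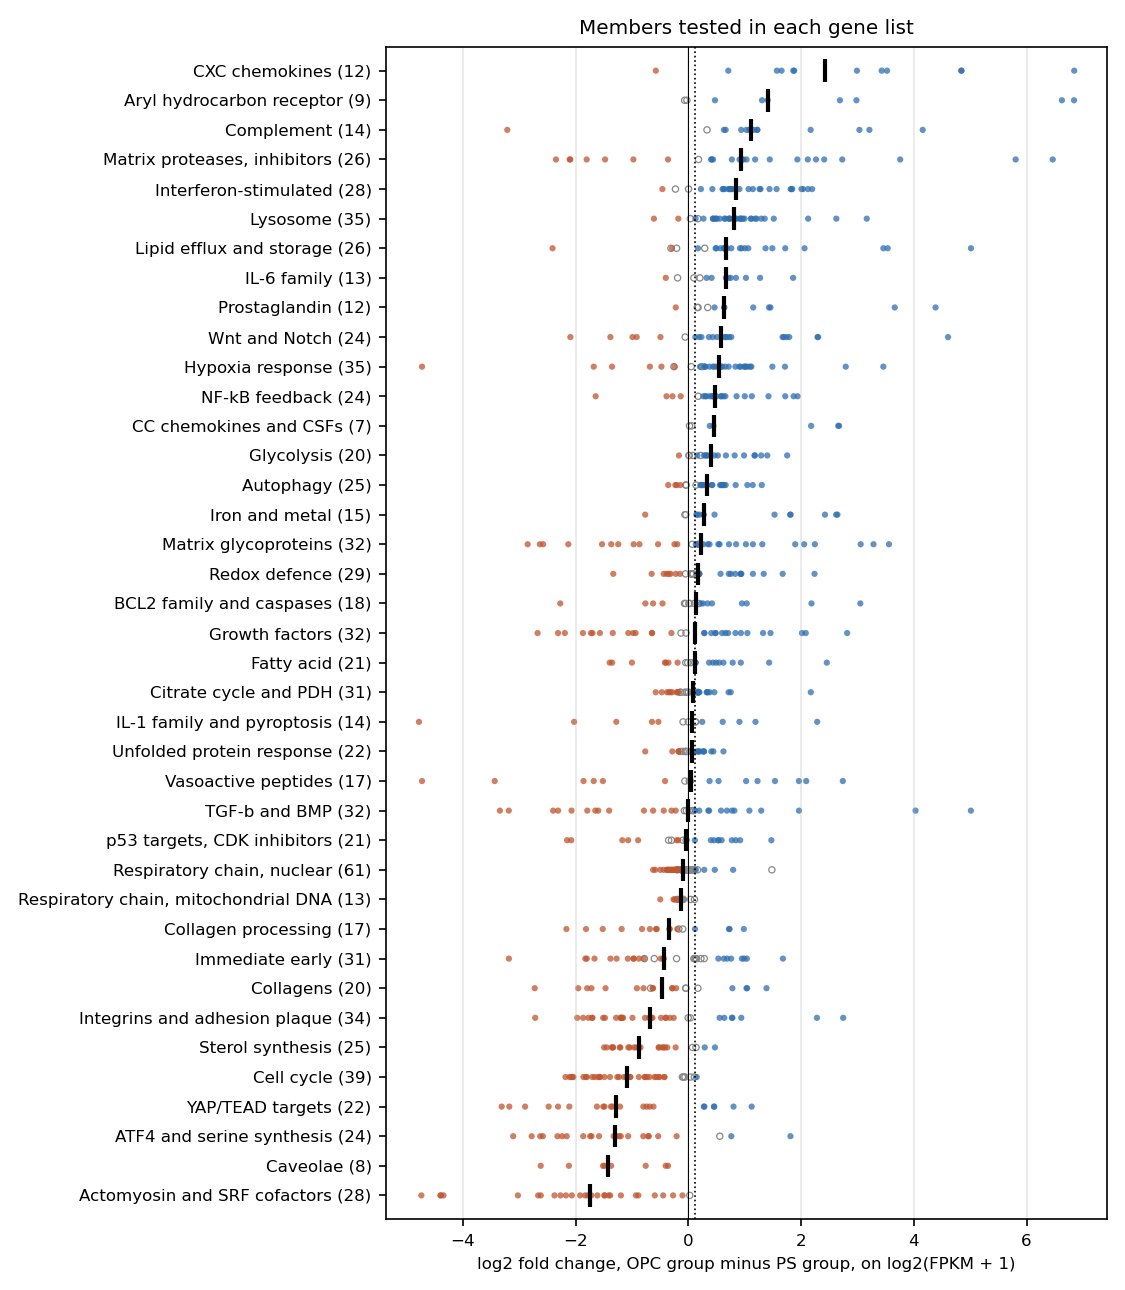
Log2FC of each tested member (points) of 39 gene lists, OPC group minus PS group, with the number of members tested in brackets. Blue and orange points passed an adjusted p of 0.05 from limma, open points did not, black ticks are list medians and the dotted line is the median of all genes tested (0.11). The contractile, caveolar, ATF4, YAP and cell cycle lists lie furthest to the left and the CXC chemokine list furthest to the right.

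Matrix genes split by kind, with more proteases higher than lower and more collagen genes and collagen-modifying enzyme genes lower than higher. Of 26 proteases and protease inhibitors, 18 were higher and 7 lower (median log2FC 0.93). Mmp13, a collagenase on chromosome 8 from 5522739 to 5533018, had 0.7600, 0.714 and 1.53 FPKM in the PS libraries and 195, 174 and 152 in the OPC libraries (limma log2FC 6.46 with SE 0.15, adjusted p = 1.18e-09). Mmp3, which activates other matrix proteases, lies near it from 5676665 to 5698579 and had 0.918, 0.884 and 1.94 FPKM in the PS libraries and 136, 126 and 106 in the OPC libraries. Both were low in each PS library and over 100 FPKM in each OPC library. Mmp10 rose from 0.144 FPKM to 14.6 FPKM, a log2FC of 3.76 that was 5.997 with a pseudocount of 0.1, and the thrombin inhibitor gene Serpine2 rose from 53.5 FPKM to 289 FPKM. The inhibitor gene Timp3, whose product blocks matrix proteases, went the other way and fell from 234 FPKM to 66.5 FPKM. The versican-cleaving protease gene Adamts1 fell from 186 FPKM to 42.8 FPKM. Mmp2 and Mmp14, the gelatinase and its membrane-bound activator, rose from 442 FPKM to 2129 FPKM and from 342 FPKM to 1310.4 FPKM.

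Of 20 collagen genes, 12 were lower and 4 higher (median -0.46). Col11a1 and Col12a1 fell from 401 FPKM to 60.2 FPKM and from 45.6 FPKM to 12.5 FPKM, and Col1a1, the main chain of collagen I, fell from 5833 FPKM to 3756 FPKM. Col3a1 rose from 1463 FPKM to 2517 FPKM and Col5a3 rose from 11.1 FPKM to 30.7 FPKM, so Col1a1 and Col3a1 moved in opposite directions, while Col1a2 did not pass. Of 17 genes that modify or crosslink collagen, 11 were lower and 4 higher (median -0.34). Lox, the crosslinking lysyl oxidase, had 612, 601 and 589.9 FPKM in the PS libraries and 120.0, 113 and 176 in the OPC libraries (limma log2FC -2.16 with SE 0.13, adjusted p = 5.76e-07). P4ha3, Loxl2 and Plod2 fell too, while Plod1, another lysyl hydroxylase gene, rose from 86.5 FPKM to 172 FPKM. Among 32 other matrix glycoprotein and proteoglycan genes, 18 were higher and 12 lower (median 0.22). Vcan, a large proteoglycan of loose matrix, had 30.6, 29.6 and 32.6 FPKM in the PS libraries and 378, 359 and 389 in the OPC libraries. Spp1, which encodes osteopontin, had 311, 301 and 321 FPKM in the PS libraries and 3313, 2976 and 2852 in the OPC libraries. Both were higher in every OPC library, and so was the fibulin gene Fbln1, from 12.8 FPKM to 64.6 FPKM. Tenascin C (Tnc) and elastin (Eln), proteins of tense and elastic matrix, fell from 164 FPKM to 21.9 FPKM and from 47.02 FPKM to 6.73 FPKM.

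**Figure D4:**
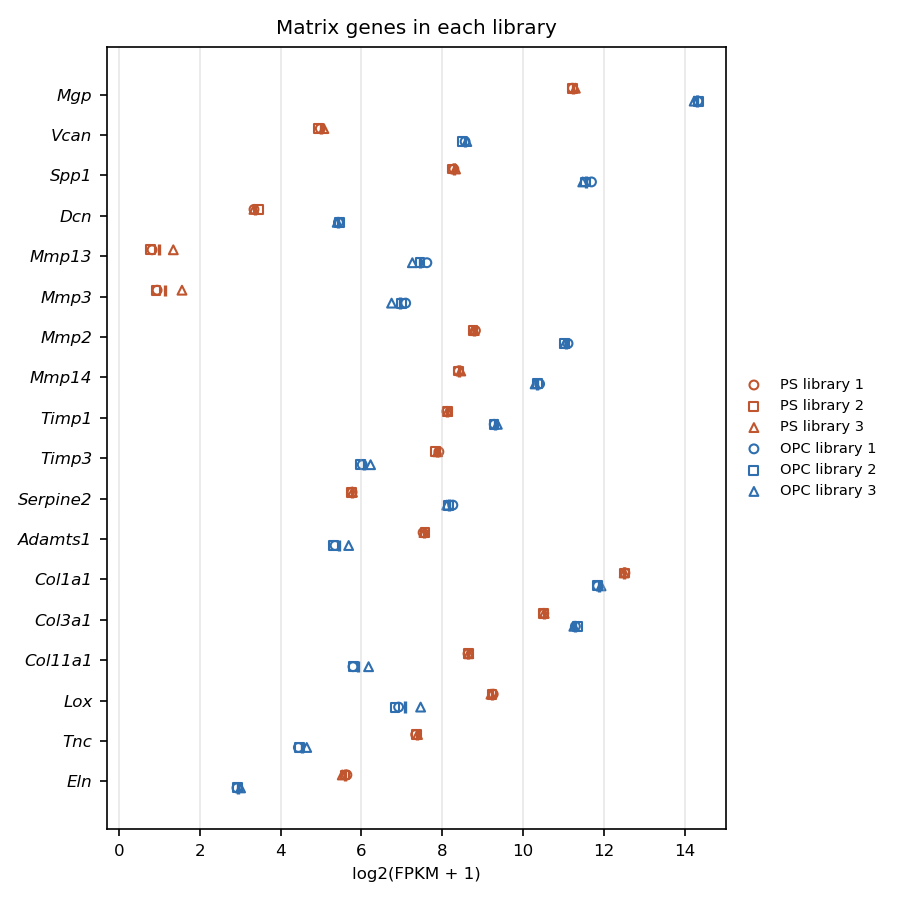
Level of 18 matrix genes in each library as log2(FPKM + 1), with a symbol per library number and a tick at each group mean. Mgp, Vcan, Spp1, Mmp13 and Mmp3 are higher in all 3 OPC libraries, and Col11a1, Lox, Tnc and Eln are lower in all 3.

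Chemokine and cytokine genes were mostly higher in the OPC group. Of 12 CXC chemokine, CX3C and receptor genes tested, 11 were higher and 1 lower, with a median log2FC of 2.43, and 10 of the 11 were DEGs (background 6.6%). Cxcl6, a neutrophil chemokine on chromosome 14 from 18860264 to 18862407, had 14.5, 16.6 and 23.1 FPKM in the PS libraries and 517, 525 and 575 in the OPC libraries (limma log2FC 4.85 with SE 0.14, adjusted p = 4.06e-09). Cxcl3, from 18820168 to 18839595, had 9.44, 8.397 and 11.6 FPKM in the PS libraries and 312, 296 and 312 in the OPC libraries. These paralogs lie close together and may share reads with each other and with Cxcl1. The interferon-induced chemokine gene Cxcl10 rose from 1.63 FPKM to 29.5 FPKM. The exception was Cxcl12, which holds stem cells in their niche and fell from 63.6 FPKM to 42.97 FPKM. Of 7 CC chemokine and colony-stimulating factor genes, 5 were higher and 0 lower. Ccl20 rose from 13.4 FPKM to 91.2 FPKM and the monocyte chemokine gene Ccl2 rose from 1269.9 FPKM to 1730.0 FPKM. With no filter on low values this list had 10 higher members, and with a minimum of 5 FPKM it had 3.

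In the interleukin-6 family, 9 of 13 genes were higher and 1 lower (median log2FC 0.67), and the 2 largest rises were in receptor genes. Il6st, which encodes the shared signalling subunit gp130, had 72.4, 74.5 and 75.4 FPKM in the PS libraries and 271, 277 and 266 in the OPC libraries (limma log2FC 1.86 with SE 0.03, adjusted p = 3.6e-10). Its partner genes Lifr and Osmr rose from 3.95 FPKM to 10.96 FPKM and from 32.4 FPKM to 58.97 FPKM, and the ligand gene Clcf1 rose from 8.55 FPKM to 18.4 FPKM, while the ligand gene Lif fell from 140.1 FPKM to 106 FPKM. Genes of interleukin 1 signalling and pyroptosis, an inflammatory form of cell death, were split, with 5 higher, 5 lower and 4 not passing of 14, against 8 higher and 5 lower with no filter on low values. The signalling receptor gene Il1r1 had 56.2, 54.1 and 56.1 FPKM in the PS libraries and 281, 289.7 and 254 in the OPC libraries. Il33, the ligand of ST2, rose from 3.43 FPKM to 9.12 FPKM while its receptor gene Il1rl1 fell, and the receptor antagonist gene Il1rn rose from 5.58 FPKM to 11.4 FPKM. Nlrp3, the sensor of an inflammasome, fell from 10.4 FPKM to 1.86 FPKM. Casp1, the protease that it activates, had 1.47, 1.82 and 1.502 FPKM in the PS libraries and 3.13, 3.06 and 2.697 in the OPC libraries (limma log2FC 0.61 with SE 0.10, adjusted p = 0.000658). Il1b did not reach 1 FPKM in any of the 6 libraries and was not tested. It had 0.04885, 0.16637 and 0.09689 FPKM in the PS libraries and 0.83816, 0.37263 and 0.58181 in the OPC libraries.

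Genes that NF-kB or interferon induce were higher in most cases. Of 24 NF-kB genes, mainly its subunits and feedback inhibitors, 19 were higher and 4 lower (median log2FC 0.48). The apoptosis inhibitor gene Birc3 had 2.68, 2.13 and 2.75 FPKM in the PS libraries and 11.3, 14.9 and 9.72 in the OPC libraries. The kinase gene Ikbke and the cofactor gene Bcl3 rose from 13.3 FPKM to 46.1 FPKM and from 11.6 FPKM to 32.8 FPKM, and Tnfaip3, which ends NF-kB signalling, rose from 6.94 FPKM to 14.9 FPKM. Tnfaip6, a hyaluronan-binding protein gene, fell from 18.7 FPKM to 5.396 FPKM. Of 28 interferon-stimulated genes, 25 were higher, 1 was lower and 2 did not pass (median 0.85), and 2 were lower without the first OPC library. Gbp2, a GTPase that attacks pathogen vacuoles, had 1.76, 1.47 and 2.02 FPKM in the PS libraries and 11.1, 13.8 and 8.46 in the OPC libraries (limma log2FC 2.12 with SE 0.17, adjusted p = 4.07e-06). Irf7, which amplifies the interferon response, rose from 3.46 FPKM to 12.4 FPKM. Ifi44 and Gbp5 rose from 2.73 FPKM to 7.97 FPKM and from 2.88 FPKM to 8.56 FPKM, while Ifit2 fell from 26.1 FPKM to 18.7 FPKM.

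Complement, a cascade of blood proteins that stromal cells also make, was higher in 12 of 14 genes and lower in 1 (median log2FC 1.12). C6, part of the membrane attack complex, had 3.25, 3.502 and 3.696 FPKM in the PS libraries and 79.8, 75.97 and 81.2 in the OPC libraries (limma log2FC 4.16 with SE 0.06, adjusted p = 1.65e-10). Serping1, which restrains the cascade in solution, rose from 13.4 FPKM to 132 FPKM, and the protease gene C1s rose from 165 FPKM to 746 FPKM. Cd55, which restrains it on the cell surface, had 37.5, 36.9 and 36.6 FPKM in the PS libraries and 2.21, 2.31 and 5.51 in the OPC libraries. It was the only complement gene tested that fell, while Cd59, another surface regulator, rose from 28.6 FPKM to 68.1 FPKM and Cd46 did not pass. For prostaglandins, 8 of 12 genes were higher and 1 lower (median 0.64). Pla2g2a, a secreted phospholipase, rose from 56.5 FPKM to 1200.5 FPKM and Ptges, which makes prostaglandin E2, had 0.435, 0.185 and 1.08 FPKM in the PS libraries and 20.99, 17.6 and 16.5 in the OPC libraries. The cyclooxygenase genes Ptgs1 and Ptgs2 rose from 34.8 FPKM to 97.4 FPKM and from 78.2 FPKM to 212 FPKM. The 1 lower member, Ptges3, fell from 111 FPKM to 94.8 FPKM and did not pass without the first OPC library (adjusted p = 0.0595 from limma) or the third PS library (adjusted p = 0.0506 from limma), with a range of 0.0019 to 0.0595 over all settings.

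The aryl hydrocarbon receptor (AhR) binds planar ligands and switches on enzymes that clear them. Of 9 genes of this pathway, 7 were higher and 0 lower (median log2FC 1.41), and the receptor gene Ahr itself did not pass. After upper-quartile rescaling, or without the third OPC library, 1 gene of the list was lower. Cyp1a1, the classical target, lies on chromosome 8 from 62472095 to 62478147. It had 0.0775, 0.02201 and 1.15 FPKM in the PS libraries and 129.7, 162 and 107 in the OPC libraries (limma log2FC 6.63 with SE 0.27, adjusted p = 3.15e-08). Aldh3a1, an aldehyde dehydrogenase on chromosome 10 from 47490153 to 47499876, had 0.545, 0.265 and 2.36 FPKM in the PS libraries and 216, 257 and 176 in the OPC libraries (limma log2FC 6.84 with SE 0.33, adjusted p = 1.05e-07). For both, the third PS library was the highest of its group and the third OPC library the lowest of its own. The quinone reductase gene Nqo1 rose from 144 FPKM to 940.3 FPKM, and Tiparp, which feeds back on the receptor, rose from 19.2 FPKM to 52.9 FPKM. The receptor's partner gene Arnt and the feedback gene Ahrr rose from 17.9 FPKM to 25.2 FPKM and from 0.261 FPKM to 9.08 FPKM. Relative to the ULA group, 7 of the 9 genes were higher on OPC and 0 lower (limma adjusted p of 0.05 or less, which 54% of all genes tested met in either direction). Cyp1a1 had 4.28, 3.06 and 3.77 FPKM in the ULA libraries.

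The core of the AhR response element is GCGTG. It was searched on both strands in the RefSeq GRCr8 promoters, where 6 of the 9 genes were matched and Cyp1a1 and Aldh3a1 were not. At least 1 copy was found in 5 of the 6 (83.3%), and also in 4510 of 8781 promoters of genes tested (51.4%) and 9939 of 33469 in the table (29.7%). Among DEGs, 242 of 555 that rose (43.6%) and 247 of 527 that fell (46.9%) held a copy. The stretches of Ahrr (chr1:30822032-30822211, plus strand) and Cyp1b1 (chr6:21094439-21094594, plus strand) are shown because they hold more than 1 copy, in capitals and written CACGC where it lies on the other strand.
Ahrr: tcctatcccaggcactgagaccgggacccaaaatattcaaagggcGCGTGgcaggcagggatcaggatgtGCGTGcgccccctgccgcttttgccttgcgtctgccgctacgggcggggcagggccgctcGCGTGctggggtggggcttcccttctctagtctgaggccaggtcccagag
Cyp1b1: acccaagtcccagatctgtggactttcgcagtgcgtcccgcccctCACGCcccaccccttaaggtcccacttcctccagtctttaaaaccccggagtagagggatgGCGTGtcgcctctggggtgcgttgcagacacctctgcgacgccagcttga
Cyp1b1, a related oxidase gene named for its promoter match, had 408 ± 3.58 FPKM across the PS libraries and 1014 ± 72.2 across the OPC libraries (SD, n = 3).

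Genes of redox defence were mixed, with 14 of 29 higher, 8 lower and 7 not passing (median log2FC 0.18). Gpx3, a secreted peroxidase, had 109, 98.2 and 101 FPKM in the PS libraries and 515, 467 and 486 in the OPC libraries, and the heme-degrading enzyme gene Hmox1 rose from 115 FPKM to 369 FPKM. Cat, which breaks down hydrogen peroxide, rose from 54.5 FPKM to 139 FPKM. In contrast Txnip, whose product binds thioredoxin, fell from 22.98 FPKM to 8.63 FPKM, and Gclm, a subunit of the enzyme that starts glutathione synthesis, fell from 9.59 FPKM to 5.79 FPKM. Among 15 genes of iron and metal handling, 12 were higher and 1 lower (median 0.27), with 8 and 2 after upper-quartile rescaling. The metallothionein genes Mt1 and Mt2A, which bind zinc and copper, had 9.99, 10.6 and 12.3 FPKM in the PS libraries and 71.1, 76.2 and 73.8 in the OPC libraries, and 136, 129 and 121 FPKM in the PS libraries and 709, 684 and 689 in the OPC libraries. The ferroxidase gene Cp rose from 99.8 FPKM to 619.9 FPKM and the iron importer gene Slc11a2 rose from 12.7 FPKM to 47.2 FPKM. The transferrin receptor gene Tfrc, which takes up iron and is usually high in dividing cells, fell from 21.4 FPKM to 12.2 FPKM.

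Genes that ATF4 induces when amino acids run short, together with those of serine synthesis, were lower in 21 of 24 cases and higher in 2 (median log2FC -1.30). Psat1, an enzyme of serine synthesis, had 21.5, 23.5 and 22.6 FPKM in the PS libraries and 1.88, 2.81 and 4.001 in the OPC libraries (limma log2FC -2.63 with SE 0.17, adjusted p = 7.7e-07). Slc7a5, which imports large neutral amino acids, had 81.3, 80.7 and 80.7 FPKM in the PS libraries and 10.1, 10.7 and 12.1 in the OPC libraries. Chac1, which degrades glutathione, fell from 36.4 FPKM to 5.26 FPKM, and the lipoprotein receptor gene Vldlr fell from 228 FPKM to 25.6 FPKM. The 2 that rose were Ddit4, an inhibitor of mTORC1, from 25.7 FPKM to 92.8 FPKM, and the stress cytokine gene Gdf15, from 22.8 FPKM to 39.4 FPKM. The unfolded protein response of the endoplasmic reticulum had no such shift, with 10 of 22 genes higher, 4 lower and 0 DEGs. Its median log2FC of 0.06 became -0.02 after upper-quartile rescaling. The largest changes were in Dnajb9 (from 19.3 FPKM to 30.2 FPKM) and Herpud1 (from 75.5 FPKM to 44.01 FPKM).

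In glycolysis, 15 of 20 genes were higher and 1 lower, with a modest median log2FC of 0.40. Pfkfb3, whose product makes the main activator of phosphofructokinase, had 10.4, 9.81 and 10.4 FPKM in the PS libraries and 39.3, 37.8 and 33.4 in the OPC libraries. Hk2, the inducible hexokinase, had 9.05, 7.84 and 7.91 FPKM in the PS libraries and 24.8, 22.2 and 23.3 in the OPC libraries (limma log2FC 1.40 with SE 0.08, adjusted p = 2.13e-07). The glucose transporter gene Slc2a1 and the lactate transporter gene Slc16a1 rose from 27.4 FPKM to 68.6 FPKM and from 22.4 FPKM to 52.1 FPKM. Ldha and Pfkl, enzymes at the end and at the committed step of glycolysis, rose from 247 FPKM to 305 FPKM and from 32.99 FPKM to 59.1 FPKM. The subunit gene Ldhb fell from 46.3 FPKM to 41.1 FPKM. Several of these enzymes have processed copies in the genome that may share reads. Of 35 genes of the hypoxia response, 26 were higher and 6 lower (median 0.55). Angptl4, which blocks lipoprotein lipase, had 2.06, 2.68 and 1.79 FPKM in the PS libraries and 33.8, 35.9 and 31.5 in the OPC libraries. Egln3, an oxygen-sensing hydroxylase gene, and Stc1, a secreted hormone gene, rose from 9.72 FPKM to 73.2 FPKM and from 2.26 FPKM to 9.77 FPKM. Hif1a, the oxygen-regulated factor itself, rose from 51.9 FPKM to 148 FPKM, while Edn1 and the vasodilator peptide gene Adm, both on this list, fell.

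Mitochondrial genes moved little. Citrate cycle and pyruvate dehydrogenase genes were higher in 13 and lower in 9 of 31 cases (median log2FC 0.09), against 9 and 12 after upper-quartile rescaling. The synthase gene Cs fell from 73.1 FPKM to 64.2 FPKM (limma log2FC -0.19 with SE 0.05, adjusted p = 0.00773), Idh2 fell from 43.8 FPKM to 34.3 FPKM and Mdh2 from 109 FPKM to 83.7 FPKM. The inhibitory kinase genes Pdk1, Pdk2 and Pdk3, which limit the entry of pyruvate, rose from 10.1 FPKM to 14.3 FPKM, from 9.77 FPKM to 17.1 FPKM and from 12.8 FPKM to 21.7 FPKM. Sdha, a subunit of complex II, rose from 39.03 FPKM to 44.2 FPKM, but its adjusted p was 0.0896 from limma after upper-quartile rescaling, the highest in a range of 0.00449 to 0.0896 over all settings. Of 61 nuclear genes of the respiratory chain, 27 were lower, 4 higher and 30 did not pass (median -0.09), and 0 were DEGs. The largest fall among them was in Cox6a1, from 269 FPKM to 174 FPKM. Of 13 protein genes of mitochondrial DNA, 4 were lower and 0 higher, while 10 were lower after upper-quartile rescaling and 2 with no filter, and 1 was higher without the first PS library. Mt-cyb had 6257, 5778 and 5809 FPKM in the PS libraries and 4089, 4110.4 and 4430.5 in the OPC libraries, and Mt-co2 had 7028 ± 228 FPKM across the PS libraries and 6485 ± 283 across the OPC libraries (SD, n = 3), a difference that did not pass (adjusted p = 0.114 from limma).

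Sterol synthesis genes fell in 21 of 25 cases and rose in 2 (median log2FC -0.88). Msmo1, which oxidises methyl groups of sterol precursors, had 121, 124 and 123 FPKM in the PS libraries and 41.1, 45.6 and 42.1 in the OPC libraries, and Cyp51, the lanosterol demethylase, fell from 88.1 FPKM to 33.7 FPKM. Genes of lipid efflux, binding and storage went the other way, with 21 of 26 higher and 2 lower (median 0.67). Abca1, which hands cholesterol to apolipoproteins such as Apoe, had 4.06, 4.62 and 4.45 FPKM in the PS libraries and 21.6, 22.9 and 19.8 in the OPC libraries (limma log2FC 2.06 with SE 0.07, adjusted p = 9.66e-09). G0s2, which blocks the main fat lipase, rose from 3.34 FPKM to 48.98 FPKM, while the fatty acid carrier gene Fabp5 fell from 69.5 FPKM to 12.7 FPKM. Among 21 fatty acid genes, 10 were higher and 7 lower (median 0.11). Those that rose most carry fatty acids into mitochondria for burning. Cpt1a, the gatekeeper of that step, had 10.1, 8.897 and 9.75 FPKM in the PS libraries and 57.8, 58.03 and 55.1 in the OPC libraries, and Cpt2 and the dehydrogenase gene Acadl rose from 7.13 FPKM to 20.97 FPKM and from 32.8 FPKM to 63.5 FPKM. The desaturase genes Scd and Fads2 fell from 18.98 FPKM to 6.83 FPKM and from 85.7 FPKM to 31.97 FPKM.

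Lysosomal genes were mostly higher. Of 35 tested, 31 were higher, 2 lower and 2 did not pass (median log2FC 0.81, background 40.4%). Ctsb, a cysteine protease of the lysosome, had 489, 472 and 493 FPKM in the PS libraries and 2159, 2216 and 1986 in the OPC libraries (limma log2FC 2.13 with SE 0.05, adjusted p = 1.21e-09). Gpnmb, a glycoprotein of lysosomes under load, had 211, 205 and 218 FPKM in the PS libraries and 2001, 1881 and 1834 in the OPC libraries, and Cd68 had 2.91, 2.76 and 3.43 FPKM in the PS libraries and 25.98, 24.1 and 21.6 in the OPC libraries. Gpnmb and Cd68 are abundant in macrophages, whose other matched markers were near 0 here, while Itgam, C1qa and Cd163 were not matched and so not measured. The collagen-degrading cathepsin gene Ctsk rose from 69.9 FPKM to 202 FPKM. Ctsz fell from 7.08 FPKM to 4.299 FPKM. Of 25 autophagy genes, 18 were higher and 4 lower (median 0.33), and 2 were lower without the second OPC library or without the first PS library. The stress sensor gene Sesn3 and the autophagosome gene Map1lc3a rose from 18.2 FPKM to 46.3 FPKM and from 62.6 FPKM to 139.6 FPKM, the initiating kinase gene Ulk1 rose from 8.305 FPKM to 18.2 FPKM, and the cargo receptor gene Nbr1 rose from 41.6 FPKM to 75.2 FPKM.

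Cell cycle genes were lower in 33 of 39 cases, with 1 higher and 5 not passing (median log2FC -1.09). Cdk1, the kinase that starts mitosis, had 33.9, 34.8 and 31.6 FPKM in the PS libraries and 5.72, 5.27 and 9.402 in the OPC libraries (limma log2FC -2.18 with SE 0.20, adjusted p = 7.97e-06). Rrm2 and Tk1, which supply nucleotides for DNA synthesis, fell from 38.3 FPKM to 8.35 FPKM and from 20.2 FPKM to 4.18 FPKM, and the topoisomerase gene Top2a fell from 18.4 FPKM to 3.83 FPKM. All of these were present in every OPC library. The 1 that rose was Ccnd2, from 62.9 FPKM to 69.7 FPKM, and its adjusted p was 0.104 from limma after upper-quartile rescaling, the highest in a range of 0.00347 to 0.104 over all settings. Of 21 p53 targets and cyclin-dependent kinase inhibitors, 10 were higher and 7 lower (median -0.04). The inhibitor genes Cdkn1a, Cdkn2a and Cdkn2b rose from 111 FPKM to 191 FPKM, from 24.03 FPKM to 43.9 FPKM and from 9.77 FPKM to 19.4 FPKM. The growth-arrest gene Btg1 rose from 97.8 FPKM to 273 FPKM, while Plk2 and Gadd45b fell from 133 FPKM to 29.1 FPKM and from 52.8 FPKM to 11.8 FPKM.

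Among 18 apoptosis genes of the BCL2 and caspase families, 8 were higher and 4 lower (median log2FC 0.14). The death-promoting BH3-only genes did not move together. Bmf, which is released from the cytoskeleton when cells lose attachment, had 0.916, 1.14 and 1.17 FPKM in the PS libraries and 17.2, 17.97 and 13.7 in the OPC libraries (limma log2FC 3.05 with SE 0.10, adjusted p = 7.48e-09), and Bcl2l11, which encodes BIM, rose from 3.05 FPKM to 17.4 FPKM. Pmaip1, which encodes NOXA, fell from 88.6 FPKM to 17.6 FPKM. The survival gene Bcl2l1 fell from 20.1 FPKM to 11.4 FPKM, and Bid, whose product acts on mitochondria once cleaved, rose from 12.7 FPKM to 27.1 FPKM.

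Growth factor genes changed in both directions, with 16 of 32 higher and 14 lower (median log2FC 0.12, and -0.04 with no filter on low values). Hgf, the hepatocyte growth factor that acts on epithelium and endothelium, had 2.36, 2.56 and 2.704 FPKM in the PS libraries and 23.3, 21.1 and 27.9 in the OPC libraries (limma log2FC 2.82 with SE 0.11, adjusted p = 1.82e-08). Igf1, a survival factor for cardiomyocytes, had 9.104, 9.71 and 10.5 FPKM in the PS libraries and 39.8, 43.2 and 44.7 in the OPC libraries (limma log2FC 2.02 with SE 0.06, adjusted p = 5.71e-09). Vegfa, the main angiogenic factor, had 116, 106 and 112 FPKM in the PS libraries and 204, 196 and 199 in the OPC libraries (limma log2FC 0.84 with SE 0.04, adjusted p = 1.63e-07). For these 3 genes each OPC library was above each PS library. Fgf7 and Fgf10, which stromal cells send to epithelium, rose from 56.7 FPKM to 245 FPKM and from 9.14 FPKM to 26.9 FPKM. Fgf2 had 2.71 ± 0.212 FPKM across the PS libraries and 2.43 ± 0.737 across the OPC libraries (SD, n = 3) and did not pass (adjusted p = 0.488 from limma). Hbegf and Nrg1, ligands of the EGF receptor family, fell from 51.1 FPKM to 7.26 FPKM and from 26.98 FPKM to 4.64 FPKM.

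**Figure D5:**
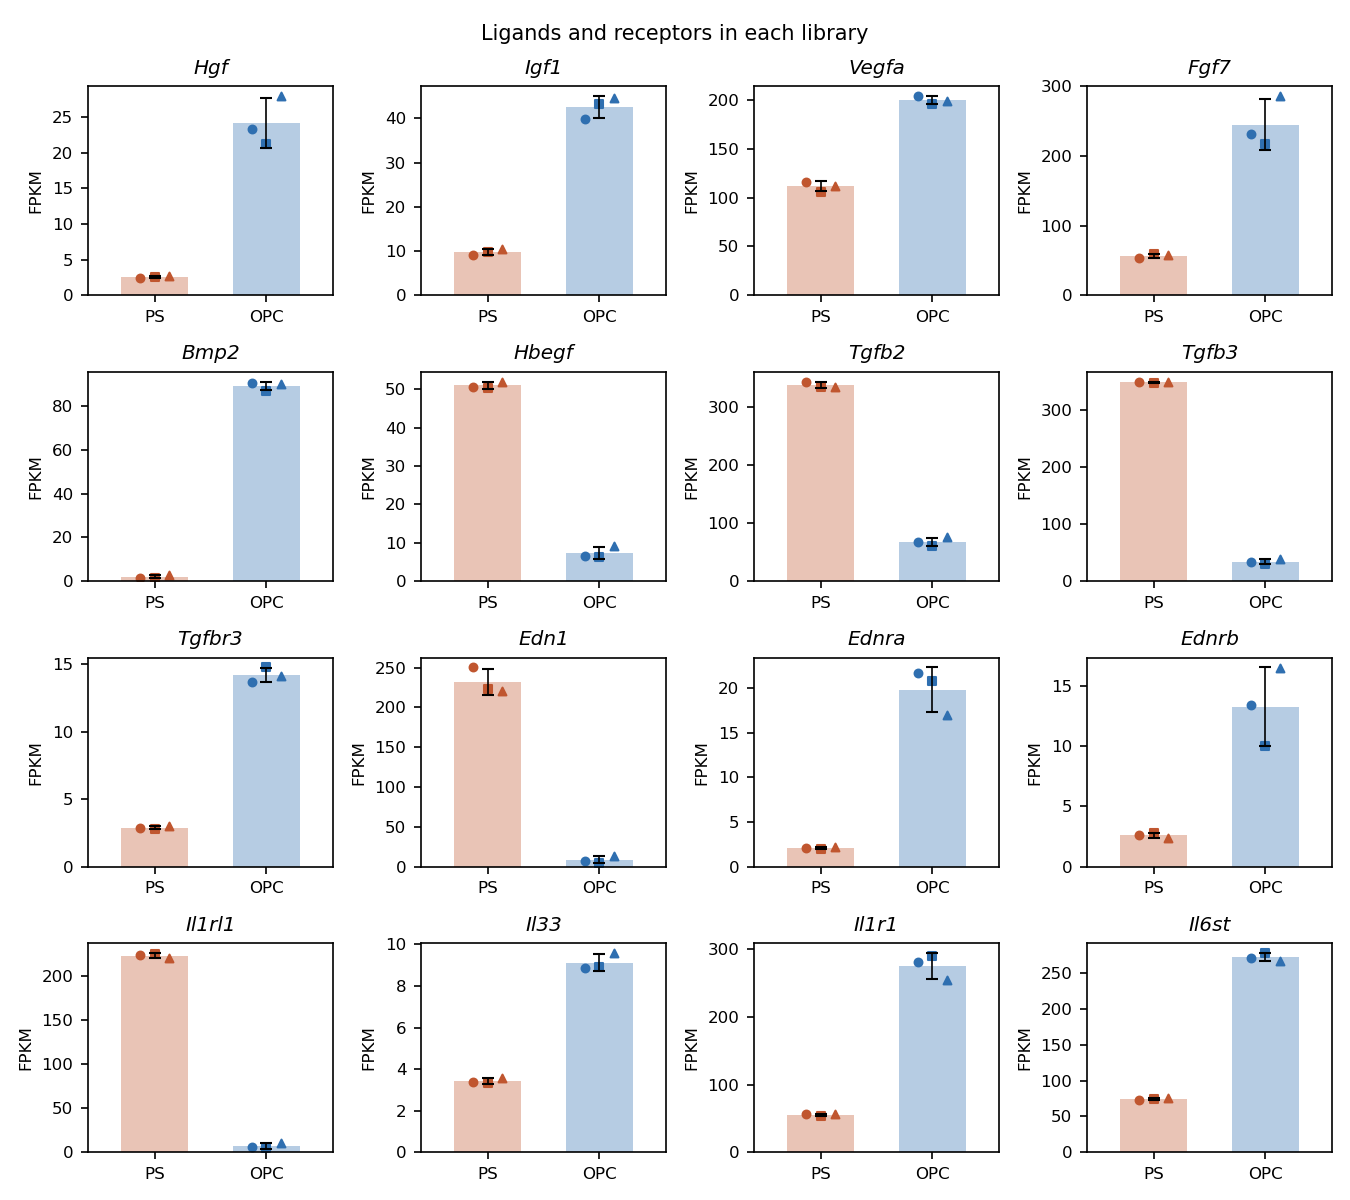
FPKM of 16 ligand and receptor genes in the PS and OPC groups, with bars at the mean of 3 libraries, error bars of 1 SD and a symbol per library number. Hgf, Igf1, Fgf7, Bmp2 and Ednra are higher in every OPC library, and Tgfb2, Tgfb3, Hbegf, Edn1 and Il1rl1 are lower in every one.

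Genes of the TGF-beta superfamily changed in both directions. Of 32, 13 were higher and 14 lower (median log2FC -0.01). Tgfb3 had 349.6, 347 and 349 FPKM in the PS libraries and 32.9, 29.9 and 37.99 in the OPC libraries (limma log2FC -3.34 with SE 0.07, adjusted p = 7.31e-10), and Tgfb2 fell from 337 FPKM to 67.4 FPKM. These ligands drive myofibroblast genes such as Acta2. Bmp2, on chromosome 3 from 126335863 to 126346318, had 1.39, 1.49 and 2.69 FPKM in the PS libraries and 90.8, 87.1 and 90.1 in the OPC libraries (limma log2FC 5.01 with SE 0.14, adjusted p = 3.18e-09). The BMP-type ligand genes Gdf6 and Bmp6 fell from 63.6 FPKM to 6.29 FPKM and from 142 FPKM to 26.2 FPKM. The co-receptor gene Tgfbr3 had 2.89 ± 0.122 FPKM across the PS libraries and 14.2 ± 0.535 across the OPC libraries (SD, n = 3), and Eng, a co-receptor used as a surface marker of these cells, rose from 40.2 FPKM to 65.3 FPKM.

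Of 24 Wnt and Notch genes, 18 were higher and 5 lower (median log2FC 0.58). Sfrp2, a secreted Wnt regulator, had 5.44, 5.65 and 6.61 FPKM in the PS libraries and 175, 169 and 157 in the OPC libraries (limma log2FC 4.61 with SE 0.08, adjusted p = 3.43e-10). The related gene Sfrp4 and the receptor gene Ror2, which binds Wnt5a, rose from 3.53 FPKM to 14.2 FPKM and from 2.04 FPKM to 8.88 FPKM. The Notch ligand gene Jag1 fell from 28.3 FPKM to 5.88 FPKM and the Notch target gene Hey2 fell from 15.9 FPKM to 5.48 FPKM. Of 17 genes of vasoactive peptides, 8 were higher and 6 lower, with a median of 0.04 that became -0.04 after upper-quartile rescaling. Here the ligand and its receptors moved oppositely: Edn1 fell, while Ednra had 2.14, 1.99 and 2.17 FPKM in the PS libraries and 21.7, 20.8 and 16.97 in the OPC libraries and Ednrb had 2.63, 2.82 and 2.37 FPKM in the PS libraries and 13.4, 9.99 and 16.5 in the OPC libraries. Likewise Adm fell from 89.3 FPKM to 28.4 FPKM while Calcrl and Ramp2, which together form its receptor, rose from 3.03 FPKM to 16.1 FPKM and from 4.22 FPKM to 13.96 FPKM. The natriuretic peptide clearance receptor gene Npr3 fell from 235 FPKM to 22.2 FPKM. Immediate early genes, which respond within minutes to serum or stress, were higher in 8 and lower in 14 of 31 cases (median -0.44). Klf2, which flow and stress induce, had 108, 107 and 101 FPKM in the PS libraries and 10.8, 8.94 and 12.8 in the OPC libraries, and Myc fell from 42.5 FPKM to 11.5 FPKM. Nr4a2 rose from 10.8 FPKM to 23.2 FPKM.

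Surface marker genes that the study used to describe CDCs differed in direction. Thy1, which encodes CD90, had 138, 139 and 134 FPKM in the PS libraries and 26.7, 23.7 and 37.6 in the OPC libraries (limma log2FC -2.21 with SE 0.13, adjusted p = 4.83e-07), so each OPC library was below each PS library. Eng, which encodes CD105, had 41.4, 39.6 and 39.7 FPKM in the PS libraries and 66.2, 67.3 and 62.4 in the OPC libraries (limma log2FC 0.68 with SE 0.04, adjusted p = 5.88e-07). The endothelial marker gene Kdr and the progenitor marker gene Cd34 stayed below 0.13 FPKM in all 6 libraries and were not tested. The study measured these markers as protein, by flow cytometry. It reported CD90 lower, CD105 not different, and KDR and CD34 higher on OPC than on PS. The values here are RNA levels and do not measure surface protein. The pluripotency genes Pou5f1 and Sox2 were not tested either, at no more than 0.16562 FPKM for Pou5f1 and a listed 0 in all 6 libraries for Sox2. Of the 15 tested genes that the study names, 9 were higher and 4 lower. As a list picked by the study, they are not independent evidence of direction. By qRT-PCR scaled to GAPDH, the study reported caspase-1, VEGF, HGF, IGF-1, bFGF, CS, COXII, IDH2, SDHA and MDH2 higher on OPC than on PS. In these libraries Casp1, Vegfa, Hgf, Igf1 and Sdha were higher too. Cs, Idh2 and Mdh2 were lower, and Fgf2 and Mt-co2 did not pass. The study also reported IL-1β, Oct4, Nanog and Sox2 higher on OPC than on PS by qRT-PCR. Here Il1b, Pou5f1 (Oct4) and Sox2 were too low to be tested, and Nanog was not matched. Il1b, though below 1 FPKM, was higher in each OPC library than in any PS library. For HK2, LDHA and PFKL the study reported no difference between these groups, while all were higher here.

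The third OPC library stood slightly toward PS in these DEGs, and the third PS library toward OPC in the DEGs with the largest rises. The third OPC library was the closest of the 3 to the PS mean in 533 of the 826 DEGs that rose (64.5%) and in 563 of the 765 that fell (73.6%). Its median distance from the PS mean on the log2(FPKM + 1) scale was 1.369 for genes that rose, against 1.434 and 1.462 in the other two, and -1.338 for genes that fell, against -1.501 and -1.521. Without this library, 1675 genes were DEGs, 866 higher and 809 lower. The third PS library was the highest of its group in 19 of the 21 DEGs with a log2FC of at least 4, in 343 of all 826 DEGs that rose (41.5%) and in 4481 of all 12513 genes (35.8%). Its excess over the other two in those 21 genes had a median of 0.697% of the OPC mean. Without it, 1584 genes were DEGs, 827 higher and 757 lower. The place of the third PS library was not examined in the DEGs that fell. A cause of either shift was not tested.

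The level that these genes had on the ULA dishes is given beside the OPC level. The same OPC libraries enter the comparison with PS and the comparison with ULA, so the counts are a description. At an adjusted p of 0.05 from limma, the OPC level was above the ULA level for 4034 of all genes tested and below it for 2717. Among the 826 DEGs that rose it was above for 384 and below for 205, and 237 did not pass. Among the 765 that fell it was below for 179 and above for 288, and 298 did not pass. Of the 28 contractile genes, 20 were higher in the OPC than in the ULA group and 3 lower. The median log2FC of ULA minus PS was -2.03 for this list, against -1.75 for OPC minus PS. For CXC chemokines these medians were 2.55 and 2.43, for cell cycle genes -1.59 and -1.09, and for glycolysis 1.67 and 0.40. Acta2 had 41.7 ± 1.76 FPKM (SD, n = 3) in the ULA group, against 94.9 ± 26.98 in the OPC group. For the crosslinking enzyme gene Lox these levels were 407 ± 12.2 and 136 ± 34.4 FPKM, and for Thy1 they were 20.9 ± 1.24 and 29.3 ± 7.31 FPKM. Against the ULA group, 19 of the 35 lysosomal genes were higher in the OPC group and 8 lower, and of the 20 glycolysis genes 2 were higher and 17 lower. The unfolded protein response list, which had 0 DEGs against PS, was lower than in the ULA group in 22 of 22 genes, and the hypoxia list was lower in 28 of 35 and higher in 4.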

How the data were processed

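RNA from CDCs on the PS, ULA and OPC substrates was sequenced in 9 libraries, 3 a group. The authors deposited 1 table of 19919 genes, whose values were read as FPKM from their behaviour, since no source names the unit. They are not whole numbers. Below 0.3 FPKM, 1263 to 1740 genes per library could be set against the first PS library, and in 73.1 to 79.2% of these the ratio matched whole reads at a single step (within 0.01 in log2), against 1.89 to 3.05% at another offset. The submitters' processing notes name HISAT2 2.1, StringTie 1.3.0 and rn6, while the study's methods name featureCounts and DESeq2, and the sources used here leave unstated which tool made the values. The labels name Trizol and the methods another kit for extraction.

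Genes with at least 1 FPKM in at least 3 libraries (12513) were transformed as log2(FPKM + 1), as deposited in scale. One model of the 3 groups was fitted with limma 3.58.1 under R 4.3.3, using its intensity-dependent prior on 6 residual degrees of freedom, two-sided, with Benjamini-Hochberg adjustment over all genes. Lists and figures were made with Python 3.11.15, pandas 2.3.3, numpy 2.4.6 and matplotlib 3.10.9. In simulated data for this comparison with 12513 genes, 66 of 67 genes changed by 0.75 on the log2 scale passed, as did 66 of 67 at 1.5 and 66 of 66 at 3, and 6 of 12313 unchanged genes passed. Changes were placed in only 200 genes, all with about 5 FPKM or more in the PS group, whereas 8053 genes passed in the data. Noise was drawn independently, with 1 spread per gene. The recovery thus does not describe genes with lower levels, and the simulation differs from the data in the share of genes changed.

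The 40 gene lists, the markers and the comparison were chosen with earlier results of these data known. Of 1052 listed genes, 1016 matched 1 gene of the table (11 by another symbol), 4 matched several, 32 were not matched, and 906 were tested. Members are counted by adjusted p alone (0.05 or less). Named genes are those the study names, the 12 DEGs each way with the largest |log2FC| (at least 5 FPKM on average, groups not overlapping), up to 4 members of a list in its main direction and 2 in the other by |log2FC|, and the 10 highest genes of each group. Abcc9, Kcnj8, Cd59, Col3a1, Mmp2, Mmp14, Timp3, Tgfbr3, Arnt and Ahrr were added after their values were seen. Markers are named with their list. Alternatives were other pseudocounts, filters, scalings, thresholds and fits, a replicate block, and leaving out each library. A few genes that these rules name are not reported here.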

Additional observations from a re-analysis of the deposited data

How the results depend on the processing

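Apart from dropping the fold threshold, which called 8053 genes (5059 higher and 2994 lower), the alternatives run kept the count of DEGs within 1.5 times of 1591. It was 2172 and 2218 with pseudocounts of 0.1 and 0.01, 1270 with a minimum of 5 FPKM, 1582 with no filter, 1583 without the trend, 1594 with the 6 libraries alone, 1596 with an unadjusted p, and 1526 to 1675 when 1 library was left out. Upper-quartile rescaling gave 710 higher and 854 lower DEGs, so that 45.4% of DEGs were higher in place of 51.9%. Scaling to a common sum without mitochondrial DNA gave 782 and 793. With the replicate block, 1596 genes were DEGs (830 higher and 766 lower) and 7957 passed the adjusted p. The replicate numbers gave no sign of pairing. Same-numbered libraries of different groups had correlations of -0.039 to 0.054 between their deviations from the group means, and those with different numbers had -0.054 to 0.043. Whether same-numbered cultures shared an animal or a batch cannot be told from this. Among the log2FCs of named genes, 3453 of the values under alternatives kept their direction and their side of the threshold, 9 no longer passed, 1 newly passed (Mt-co2 after upper-quartile rescaling, adjusted p = 0.0236 from limma, range 0.0236 to 0.460) and 0 reversed. The log2FC of Pvalb, Cnn1 and Mmp10 moved by more than 1.5 times, to 7.96, -7.65 and 6.88 with a pseudocount of 0.01, as did those of Sdha, Ccnd2 and Mt-co2, to 0.09, 0.07 and -0.20 after upper-quartile rescaling, and that of Fgf2, which did not pass, to -0.30 to -0.03 with an OPC library left out. With no filter, the median of the growth factor list was -0.0415. The list medians of p53 targets, interleukin 1 signalling, TGF-beta, unfolded protein response and vasoactive genes, all near 0, also took the other sign in 1 or 2 settings. With no filter, the medians of the matrix protease, complement, Wnt and Notch, prostaglandin, interleukin-6, collagen and study-named lists moved nearer to 0 by more than 1.5 times, to 0.44, 0.66, 0.20, 0.40, 0.41, -0.28 and 0.13, the prostaglandin median was 1.15 with a minimum of 5 FPKM, and the CXC chemokine median was 4.06 with a pseudocount of 0.01. Library depth is known only as a ratio, so the precision of low values is not known. The sets of genes called were not compared between settings, and the cause of these shifts was not tested.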

Other observations

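S100b, a calcium-binding protein gene listed for glial cells, had 3.86, 3.91 and 4.24 FPKM in the PS libraries and 18.8, 16.9 and 16.9 in the OPC libraries, and passed an adjusted p of 0.05 from limma. Erbb3 and Gfra3, also listed for glial cells, stayed below 0.11 FPKM in all 6 libraries. The summed level of epicardial and mesothelial markers was 29.8 to 30.9 FPKM in the PS libraries and 20.7 to 23.0 in the OPC libraries, with 2 members higher and 1 lower at that threshold. Fabp4, an adipocyte and endothelial lipid carrier gene, was at 0 to 0.409 FPKM in the PS libraries and 0.812 to 2.19 in the OPC libraries, while Adipoq was listed at 0 in all 6. Red blood cell markers summed to 0.155 to 0.337 FPKM.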
